A study of Mus musculus with 20 samples.

Results

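The genes described here are 9 protein-coding genes of mouse chromosome 16 that were grouped as genes of restricted or low expression in the heart and that are present in 3 copies in both Dp3Tyb and Ts1Rhr mice. They are Sim2, Ripply3, Kcnj15, Pcp4, Sh3bgr, Dscam, Igsf5, B3galt5 and Fam3b, chosen by name and matched by Ensembl identifier to all 9 rows among the 48795 genes of the deposited table. They were compared with the other 21 protein-coding genes between Cbr3 and Fam3b, which are in 3 copies in the same mice. Whole hearts were taken at E13.5 (embryonic day) on a C57BL/6J background and sequenced as 20 libraries in 4 groups of 5. Dp3Tyb hearts carried the Dp(16Mir802-Zbtb21)3TybEmcf duplication and Ts1Rhr hearts the shorter Dp(16Cbr1-Fam3b)1Rhr duplication, each beside wild-type (WT) hearts with 2 copies. WT hearts are labelled with no more than the first letter of a strain, which was taken to mean the littermates of that strain. Each strain rests on 1 engineered allele that is present in every cell of the embryo, and Ts1Rhr replicates 1 and 2 are labelled as having heart defects while replicates 3 to 5 are labelled as having none. The study describes Ts1Rhr embryos as free of heart defects, which differs from the label of replicates 1 and 2.

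Mouse chromosome 16 holds much of what lies on human chromosome 21, and mice with an extra copy of parts of it are models of Down syndrome. In a whole heart the mRNA of a gene is the sum over all cell types present, so a gene that a rare or neighbouring cell type transcribes is measured together with the number of those cells. The 9 genes differ widely in where they are known to act. Sim2 and Ripply3 are transcriptional regulators of the nervous system, the muscle and epithelia, and of the pharyngeal arches. Kcnj15 encodes an inwardly rectifying potassium channel, Pcp4 a small calmodulin regulator named after Purkinje cells, and Sh3bgr a small protein of heart and skeletal muscle. Dscam and Igsf5 encode adhesion molecules of the immunoglobulin superfamily, B3galt5 a galactosyltransferase of glycolipids and glycoproteins, and Fam3b a secreted protein of the pancreatic islet.

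The genes lay on 3.42 megabases, from the start of Sim2 to the end of Fam3b, and 5 of them were near neighbours, with Sh3bgr, B3galt5, Igsf5, Pcp4 and Dscam in that order and Itgb2l and the joint gene model Gm49948 among them. In GRCm38.p6, Sim2 occupies chr16:94085104-94127032, Ripply3 chr16:94328422-94336935 and Kcnj15 chr16:95257558-95300260. Sh3bgr occupies chr16:96200470-96228933, B3galt5 chr16:96235801-96319859, Igsf5 chr16:96361479-96465572 and Pcp4 chr16:96467606-96525793, all on the plus strand. Dscam (chr16:96587452-97171113) and Fam3b (chr16:97470965-97504936) lie on the minus strand. Windows around the transcription start (250 bases before it and 50 after it, RefSeq, GRCm38.p6) were at hand for 4 of the 9 genes, and 3 of these are printed because they run from few to many CpG dinucleotides in genes that all had a read in every heart. Sequences read 5' to 3' on the strand of the gene, and capitals mark CpG dinucleotides. The windows lie at chr16:95257308-95257607 (Kcnj15), chr16:96467356-96467655 (Pcp4) and chr16:97170686-97170985 (Dscam, minus strand).

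Kcnj15: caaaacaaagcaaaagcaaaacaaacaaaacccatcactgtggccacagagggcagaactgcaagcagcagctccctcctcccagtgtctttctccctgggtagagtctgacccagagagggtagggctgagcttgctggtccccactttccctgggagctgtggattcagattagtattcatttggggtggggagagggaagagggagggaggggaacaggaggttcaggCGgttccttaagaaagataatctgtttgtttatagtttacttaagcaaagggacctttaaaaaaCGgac
Pcp4: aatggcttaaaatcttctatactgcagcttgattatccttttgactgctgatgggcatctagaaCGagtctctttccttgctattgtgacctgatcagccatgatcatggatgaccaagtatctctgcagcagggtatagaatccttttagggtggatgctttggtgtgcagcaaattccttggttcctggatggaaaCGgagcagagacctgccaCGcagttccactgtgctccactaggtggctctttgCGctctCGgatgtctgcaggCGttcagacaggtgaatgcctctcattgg
Dscam: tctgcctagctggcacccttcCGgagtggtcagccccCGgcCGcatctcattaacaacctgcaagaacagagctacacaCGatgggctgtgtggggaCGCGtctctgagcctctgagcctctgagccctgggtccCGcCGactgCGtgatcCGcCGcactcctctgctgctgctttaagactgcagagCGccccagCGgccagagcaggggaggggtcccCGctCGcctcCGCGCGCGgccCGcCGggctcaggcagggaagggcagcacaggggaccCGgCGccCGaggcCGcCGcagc

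The Kcnj15 window held 2 CpG dinucleotides and that of Pcp4 held 6, near the median of 7 over 32851 RefSeq windows of the same length. The Dscam window held 26, more than in 83.1% of all windows. B3galt5 has 3 annotated starts with 12, 6 and 24 CpG dinucleotides. TATAAA was searched on both strands and found in the Kcnj15 window, on the strand opposite to the gene and after the annotated start. It was in none of the other 5 windows of these genes (13.6% of all windows hold it on either strand). CACGTG was in 1 window of B3galt5 (7.15% of all windows). GGGCGG on either strand, which contains a CpG, was in none of the 6 windows and is in 35.7% of all.

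Libraries held between 6.60 and 19.6 M reads (M, mega), and 7 of the 20 had more than 10% of their reads on mitochondrial genes, with the highest share, 19.5%, in the shallowest library, WT replicate 5 of the Dp3Tyb cohort. The deposited values are reads divided by a size factor of the library and are called normalised reads here. All 12 cardiomyocyte markers checked had a read in every library, with summed normalised reads between 339143 and 583194, so the tissue label held. Markers of lung and foregut were uneven, however. A score of 25 such markers (mean of log2(value + 1)) was between 4.65 and 4.88 in 5 libraries, WT replicates 2, 4 and 5 of the Dp3Tyb cohort and Ts1Rhr replicates 1 and 3, and between 5.82 and 6.97 in the other 15. Of the 25 markers, 24 had a read in WT and mutant hearts of the Dp3Tyb cohort and 23 in either group of the Ts1Rhr cohort, and the surfactant gene Sftpd was at 0 throughout. Their summed level was between 7642 and 9704 in WT hearts of the Dp3Tyb cohort, 7849 and 9835 in Dp3Tyb, 7498 and 11074 in WT hearts of the Ts1Rhr cohort and 7858 and 9833 in Ts1Rhr, since it was set by genes that the heart uses as well (Tbx5 alone had 1308 to 2102 in the 5 libraries). The markers that separated the 5 libraries from the other 15 without overlap were 8 epithelial genes, Nkx2-1, Foxa1, Foxa2, Shh, Sox2, Cdh1, Cldn6 and Wnt7b. These are part of the score that set the 5 libraries apart, so their separation follows in part from that choice. Epcam, also an epithelial marker of the list, overlapped (2.28 to 20.6 against 17.0 to 139). Shh was at 0 in all 5 libraries and at 5.11 to 51.4 in the others, and Nkx2-1 was at 0 to 1.2 against 10.2 to 56.1. Whether a bulk library has fewer cells of a type or less RNA per cell cannot be told apart.

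Levels of the 9 genes in WT hearts spanned the range from nothing to one of the most abundant mRNAs of the heart. Per kb of exon, Sh3bgr had 2338 ± 406 normalised reads (SD, n = 10 WT hearts, as for the other levels here), the highest of all 30 genes from Cbr3 to Fam3b and above 99.4% of the genes with a read in WT hearts. This level went against the grouping of Sh3bgr as a gene of low expression in the heart. Kcnj15 (22.0 ± 6.64 per kb) and Ripply3 (20.4 ± 4.08 per kb) followed and did not differ beyond their spread. Pcp4 had 9.09 ± 5.58 per kb and Sim2 4.86 ± 3.89 per kb, again within their spread. Igsf5 (0.579 ± 0.323 per kb), Dscam (0.545 ± 0.35 per kb) and B3galt5 (0.268 ± 0.259 per kb) formed the lowest group with reads, in which neighbours overlapped, and Fam3b was listed at 0 in all 10 WT hearts. The median of the 9 genes was 4.86 per kb and that of the other 21 genes was 60.7 per kb. Sh3bgr, the most abundant, ends 6867 bases before the start of B3galt5, one of the rarest.

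**Figure D1:**
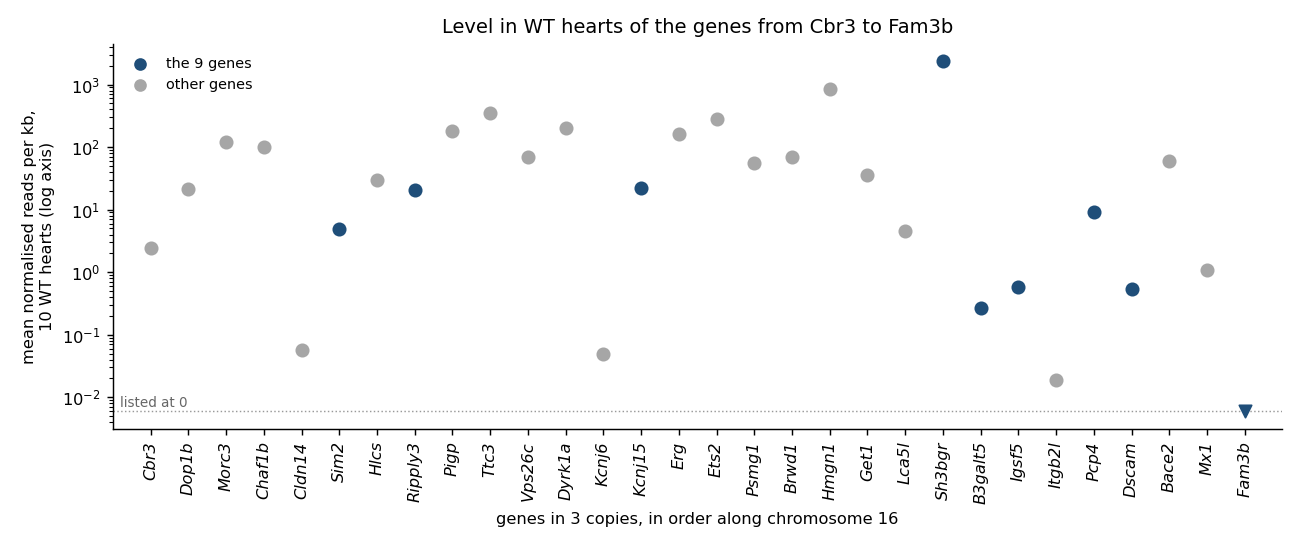
Mean level in 10 WT hearts of the 30 protein-coding genes from Cbr3 to Fam3b, in their order along chromosome 16, in normalised reads per kb of exon on a log axis, with the 9 genes in blue and the others in grey. Sh3bgr stands at the top (2338 per kb), next to B3galt5 (0.268 per kb) and Igsf5 (0.579 per kb), and the triangle marks Fam3b, listed at 0.

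Detection in whole reads did not follow the level per kb throughout, since Dscam was found in more hearts than Sim2. Ripply3, Kcnj15, Pcp4, Sh3bgr and Dscam had at least 1 read in all 20 hearts, Sim2 in 18, B3galt5 in 17, Igsf5 in 16 and Fam3b in 2. Of the 21 other genes in 3 copies, 17 had a read in all 20 hearts. Over all libraries Sh3bgr had 97053 reads, Kcnj15 3548, Ripply3 1035, Sim2 529, Pcp4 224, Dscam 109, B3galt5 67, Igsf5 43 and Fam3b 2. To enter the test across genes, a gene needed 5 or more of the 10 hearts of a cohort with 10 or more normalised reads. Sim2, Ripply3, Kcnj15 and Sh3bgr passed this filter in both cohorts, Pcp4 in the Ts1Rhr cohort alone, and Dscam, Igsf5, B3galt5 and Fam3b in neither.

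Sim2, a basic helix-loop-helix PAS factor that works as a dimer with ARNT proteins, had the widest error of the genes tested in both strains. In WT hearts of the Dp3Tyb cohort it had 33.6, 0, 24.0, 0.75 and 0 normalised reads in replicates 1 to 5 (29, 0, 31, 1 and 0 whole reads), and in Dp3Tyb hearts 7.66, 22.7, 17.8, 52.8 and 30.8. In WT hearts of the Ts1Rhr cohort it had 29.2, 15.2, 26.9, 44.0 and 47.7, and in Ts1Rhr hearts 1.2, 24.4, 5.33, 51.5 and 50.4. The groups overlapped in both cohorts. All 5 libraries with a Sim2 value below 6 were the 5 with the low lung and foregut score, in which Sim2 was between 0 and 5.33, while it was between 7.66 and 52.8 in the other 15. These 5 libraries comprised 3 of 5 WT hearts of the Dp3Tyb cohort, 2 of 5 Ts1Rhr hearts and none of the others. How many of all genes separate the libraries in the same way was not counted. On the log2(value + 1) scale Sim2 differed by 2.42 ± 1.06 (SE) between Dp3Tyb and WT hearts, and by -0.99 ± 0.78 between Ts1Rhr and WT hearts. Both missed the threshold (limma, adjusted p = 1.0 and 0.795). The size depended on the method, and on the whole reads the log2 fold changes were 1.16 ± 1.06 and -0.28 ± 0.65 by DESeq2 and 1.11 and -0.24 by edgeR. With a pseudocount of 0.1 or 5 in place of 1 the Dp3Tyb value was 3.90 or 1.34. Without the 5 libraries the difference was -0.35 ± 0.59 in Dp3Tyb, with only 2 WT hearts left, and 0.39 ± 0.39 in Ts1Rhr, so both turned their direction. With 1 heart left out the Ts1Rhr value ranged from -1.43 without Ts1Rhr replicate 4 to -0.28 without Ts1Rhr replicate 1, one of the 5 libraries. An exact permutation test over all splits of the 10 hearts into 5 and 5 gave p = 0.119 in Dp3Tyb and p = 0.357 in Ts1Rhr (2-sided, unadjusted over 18 such tests, smallest possible p = 0.00794).

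**Figure D2:**
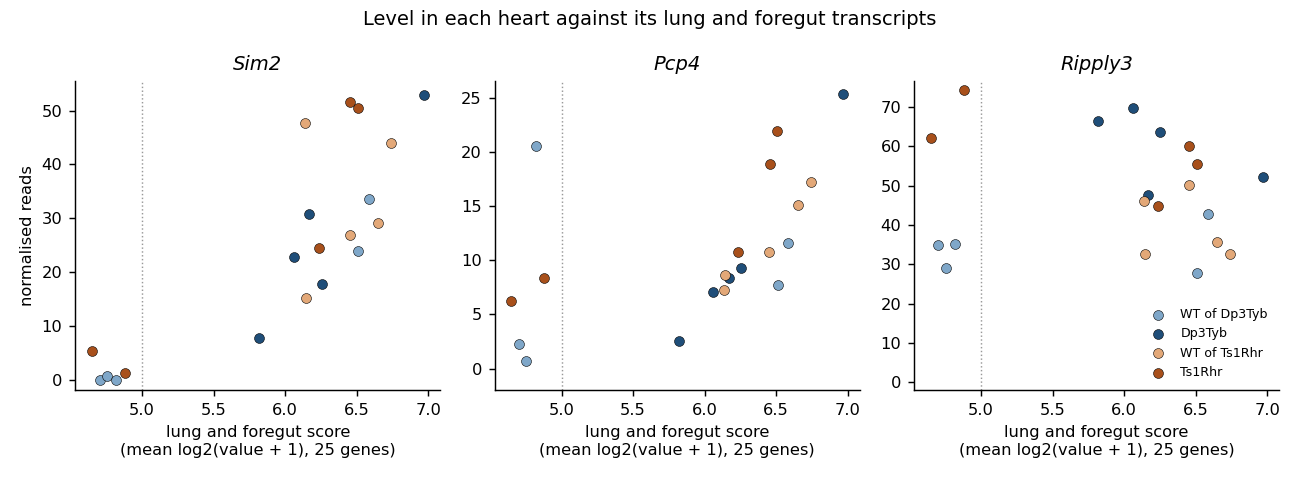
Normalised reads of Sim2, Pcp4 and Ripply3 in each of the 20 hearts against the lung and foregut score of the library (mean of log2(value + 1) over 25 markers), coloured by group, with a dotted line at a score of 5. The 5 libraries left of the line have Sim2 between 0 and 5.33, whereas their Ripply3 values (29.2 to 74.3) overlap those of the other libraries (27.8 to 69.6).

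The genes that varied most like Sim2 around their group means were Plch2 (r = 0.97), Wnt7b (r = 0.96) and Cldn6 (r = 0.96), out of 15347 genes over 20 hearts. Wnt7b and Cldn6 are epithelial genes and members of the lung and foregut list, so these correlations share libraries with the split above and are given as a description. The dimer partners Arnt and Arnt2, the most abundant of the Sim2 relatives per kb, differed by -0.01 ± 0.05 and 0.07 ± 0.10 (log2, SE) in Dp3Tyb and by -0.05 ± 0.05 and -0.15 ± 0.11 in Ts1Rhr, and neither passed the test.

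Ripply3, which recruits TLE corepressors to T-box factors and is required for the development of the pharyngeal apparatus, varied little within groups (coefficient of variation between 15.9% and 20.8%). In WT hearts of the Dp3Tyb cohort it had 42.9, 35.0, 27.8, 29.2 and 35.2 normalised reads, and in Dp3Tyb hearts 66.4, 69.6, 63.6, 52.1 and 47.6. All 5 Dp3Tyb hearts lay above all 5 WT hearts, which held for 0.501% of the 14763 genes tested in this cohort. The mean was 59.9 ± 9.54 in Dp3Tyb and 34.0 ± 5.98 in WT hearts (SD, n = 5 each), a ratio of 1.76. The log2 fold change was 0.80 ± 0.17 (SE) with an adjusted p = 0.422 by limma. It was 0.85 ± 0.20 with an adjusted p = 0.00787 by DESeq2 on the whole reads, so the call depended on the method. DESeq2 called too many unchanged genes when tested on simulated hearts of this design. Those hearts had the same spread for all genes and no uneven libraries, so the rate of false calls in the real hearts is not known from them. The edgeR test gave an adjusted p = 0.314, and the exact permutation test p = 0.00794, the smallest this design allows. In the Ts1Rhr cohort WT hearts had 35.6, 32.5, 50.2, 32.5 and 46.1 normalised reads, and Ts1Rhr hearts 74.3, 44.9, 62.2, 60.1 and 55.5. Of the Ts1Rhr hearts 4 lay above all WT hearts and replicate 2 lay among them. The log2 fold change was 0.59 ± 0.18 (limma, adjusted p = 0.795, exact permutation p = 0.0238) and did not pass the threshold. It was 0.29 ± 0.20 without libraries above 10% mitochondrial reads, where 2 WT and 3 Ts1Rhr hearts remained.

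Of the partners of Ripply3, Tle3 and Tle4 differed by 0.13 ± 0.10 and 0.03 ± 0.07 (log2, SE) in Dp3Tyb and by 0.02 ± 0.08 and 0.05 ± 0.07 in Ts1Rhr. The T-box gene Tbx1 differed by 1.56 ± 0.88 and -0.69 ± 0.45 (0.62 and -0.37 by DESeq2), and none of these passed the test. Tbx1 was at 0 to 7.19 normalised reads in the 5 libraries with few lung and foregut transcripts and at 16.2 to 44.9 in the other 15, the same split as for Sim2. The share of all genes with this split was not counted. Of 10 pharyngeal markers 7 had a read in WT and 9 in mutant hearts of the Dp3Tyb cohort, and 9 in WT and 6 in mutant hearts of the Ts1Rhr cohort. Foxi3 was at 0 in all 4 groups and Foxn1 and Gcm2 in 2 of them. The summed level of the list ran from 103 to 275 in WT hearts of the Dp3Tyb cohort, 145 to 470 in Dp3Tyb, 205 to 285 in WT hearts of the Ts1Rhr cohort and 91.5 to 274 in Ts1Rhr. Hoxa3 (25.8 to 159) and Tg (46.8 to 76.3) were found in every heart. Dp3Tyb replicate 4 stood apart, with Pax1 at 79.6, Pax9 at 31.8 and Foxn1 at 11.6. Its Ripply3 value, 52.1, was the second lowest of its group, and without it the log2 fold change of Ripply3 in Dp3Tyb was 0.84 ± 0.18. The part of the pharyngeal markers in the Ripply3 values was not tested, and leaving out 1 heart does not test it. The genes most like Ripply3 around the group means were Gk (r = 0.80), Yipf7 (r = 0.76) and Dnd1 (r = 0.76) over 20 hearts.

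Kcnj15, the channel subunit Kir4.2, had the second most reads of the 9 genes, although per kb it did not differ from Ripply3 beyond their spread. WT hearts of the Dp3Tyb cohort had 118, 152, 104, 120 and 241 normalised reads, and Dp3Tyb hearts 179, 194, 200, 164 and 222. WT replicate 5 lay above every Dp3Tyb heart, and the other 4 WT hearts lay below all of them. The log2 fold change was 0.44 ± 0.21 (SE, limma, adjusted p = 1.0, exact permutation p = 0.0952) and did not pass the threshold, and without WT replicate 5 it was 0.64 ± 0.13 (adjusted p = 0.255). It was 0.78 ± 0.15 (adjusted p = 0.732) without the 3 WT hearts with few lung and foregut transcripts, where 2 WT hearts remained and replicate 5 was among those left out. In the Ts1Rhr cohort WT hearts had 159, 118, 102, 186 and 133 normalised reads, and Ts1Rhr hearts 244, 189, 187, 211 and 222. All 5 Ts1Rhr hearts lay above all 5 WT hearts, which held for 0.619% of the 14867 genes tested in this cohort. The means were 211 ± 23.8 and 140 ± 33.1 (SD, n = 5 each), a ratio of 1.51. The log2 fold change of 0.62 ± 0.15 had an adjusted p = 0.702 by limma, 0.0647 by DESeq2 and 0.638 by edgeR, so that no method called it, and the exact permutation test gave p = 0.00794.

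The highest Kcnj15 value of each of the 4 groups was in a library with more than 10% mitochondrial reads. Without these 7 libraries the log2 fold change was 0.58 ± 0.12 in Dp3Tyb and 0.82 ± 0.16 in Ts1Rhr (limma, adjusted p = 0.105 and 0.657). Of the other inward rectifiers, Kcnj5, a subunit of the atrial channel gated by acetylcholine, differed by -0.03 ± 0.09 (log2, SE) in Dp3Tyb and -0.03 ± 0.07 in Ts1Rhr, and Kcnj11, the pore of the channel gated by ATP, by -0.07 ± 0.17 and 0.04 ± 0.12. Neither passed the test. Ppm1a (r = 0.91), Mpc1 (r = 0.88) and Ifit2 (r = 0.88) varied most like Kcnj15 over 20 hearts. A long noncoding RNA on the opposite strand, Gm49643, overlaps 7.87% of the exons of Kcnj15, and its reads cannot be told apart there, because no source used here says whether counting used strand.

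Pcp4 was present in every heart at a few reads. WT hearts of the Dp3Tyb cohort had 10, 3, 10, 1 and 7 whole reads and Dp3Tyb hearts 3, 9, 11, 35 and 6, while WT hearts of the Ts1Rhr cohort had 14, 8, 12, 9 and 9 and Ts1Rhr hearts 7, 11, 7, 22 and 30. The groups overlapped in both cohorts. In normalised reads the means were 8.58 ± 7.97 in WT and 10.5 ± 8.67 in Dp3Tyb, and 11.8 ± 4.23 in WT and 13.2 ± 6.83 in Ts1Rhr (SD, n = 5 each). Dp3Tyb replicate 4 held 35 of the 64 reads of its group, and without it the Dp3Tyb mean was 6.83 ± 3.0 (SD, n = 4), below that of WT hearts. The log2 fold change was 0.08 ± 0.37 in Ts1Rhr (SE, limma, adjusted p = 0.956, exact permutation p = 0.833) and 0.23 ± 0.45 by DESeq2, and the limma 95% interval from -0.72 to 0.88 held both no change and the log2 of 0.58 that 3 copies against 2 would give. In Dp3Tyb, where Pcp4 was below the filter, an unfiltered fit gave 0.48 with an interval from -1.0 to 1.97.

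The genes most like Pcp4 were Elavl3 (r = 0.86), Ctxnd1 (r = 0.85) and Cacng4 (r = 0.84) over 20 hearts, and Elavl3 is a neuronal RNA-binding protein on the neuronal marker list. All 16 neuronal markers had a read in each group, and their summed level was between 1101 and 1784 normalised reads in WT and 1576 and 1945 in mutant hearts of the Dp3Tyb cohort, and between 1365 and 1763 in WT and 1478 and 1918 in mutant hearts of the Ts1Rhr cohort. The score of the list was between 4.01 and 4.54 in the 5 libraries with few lung and foregut transcripts and between 4.55 and 5.86 in the other 15, so that both lists fell in the same libraries. The change of Pcp4 in Ts1Rhr was 0.19 ± 0.26 with the neuronal score as a covariate, 0.62 ± 0.28 with the lung and foregut score and 0.51 ± 0.35 without the 5 libraries, and none of these passed the test. The calmodulin genes Calm2 and Calm3 differed by 0.00 ± 0.19 and 0.01 ± 0.12 (log2, SE) in Dp3Tyb and by -0.11 ± 0.13 and -0.02 ± 0.08 in Ts1Rhr. Gm49948, a joint gene model on the same strand, holds 21.7% of the exon bases of Pcp4 and 26.8% of those of Igsf5, so reads there are of uncertain origin.

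Sh3bgr, whose protein is rich in glutamic acid and binds SH3 domains, was measured with the most reads. WT hearts of the Dp3Tyb cohort had 3297, 3767, 3270, 3580 and 5391 normalised reads, and Dp3Tyb hearts 5432, 5129, 5238, 4095 and 6989. WT replicate 5 lay above 3 of the 5 Dp3Tyb hearts, and the other WT hearts lay below all 5. The means were 5376 ± 1040 in Dp3Tyb and 3861 ± 880 in WT hearts (SD, n = 5 each), a ratio of 1.39. The log2 fold change was 0.48 ± 0.16 (SE, limma, adjusted p = 1.0, exact permutation p = 0.0317). WT hearts of the Ts1Rhr cohort had 4135, 4153, 3663, 4699 and 3362 normalised reads, and Ts1Rhr hearts 7074, 6329, 5772, 4872 and 4178. Only Ts1Rhr replicate 5 lay within the WT range. The means were 5645 ± 1149 and 4002 ± 513 (SD, n = 5 each), a ratio of 1.41, and the log2 fold change was 0.48 ± 0.14 (limma, adjusted p = 0.795, exact permutation p = 0.0159). Neither strain passed the threshold for Sh3bgr, and both 95% intervals (0.13 to 0.84 and 0.18 to 0.78) held the log2 of 0.58 expected of the gene copies.

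As for Kcnj15, the highest Sh3bgr value of all 4 groups was in a library above 10% mitochondrial reads. Without these libraries the log2 fold change was 0.51 ± 0.09 in Dp3Tyb and 0.48 ± 0.13 in Ts1Rhr (limma, adjusted p = 0.0652 and 0.996). The Ts1Rhr hearts labelled as having defects, replicates 1 and 2, were the 2 highest of their group, and both were above 10% mitochondrial reads, so label and share cannot be told apart in them. With the other 3 hearts alone, the log2 fold change was 0.30 ± 0.13. Wipf3, Tnnc1 and Myom1 (r = 0.96 each, over 20 hearts) varied most like Sh3bgr, and Tnnc1 and Myom1 encode troponin C and a protein of the M band of the sarcomere. The score of the cardiomyocyte markers was between 14.5 and 14.8 in the 5 libraries with few lung and foregut transcripts and between 14.1 and 14.7 in the others. The paralogs Sh3bgrl and Sh3bgrl3, which are in 2 copies, differed by 0.02 ± 0.10 and 0.18 ± 0.16 (log2, SE) in Dp3Tyb and by -0.08 ± 0.07 and -0.01 ± 0.19 in Ts1Rhr, and neither passed the test.

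**Figure D3:**
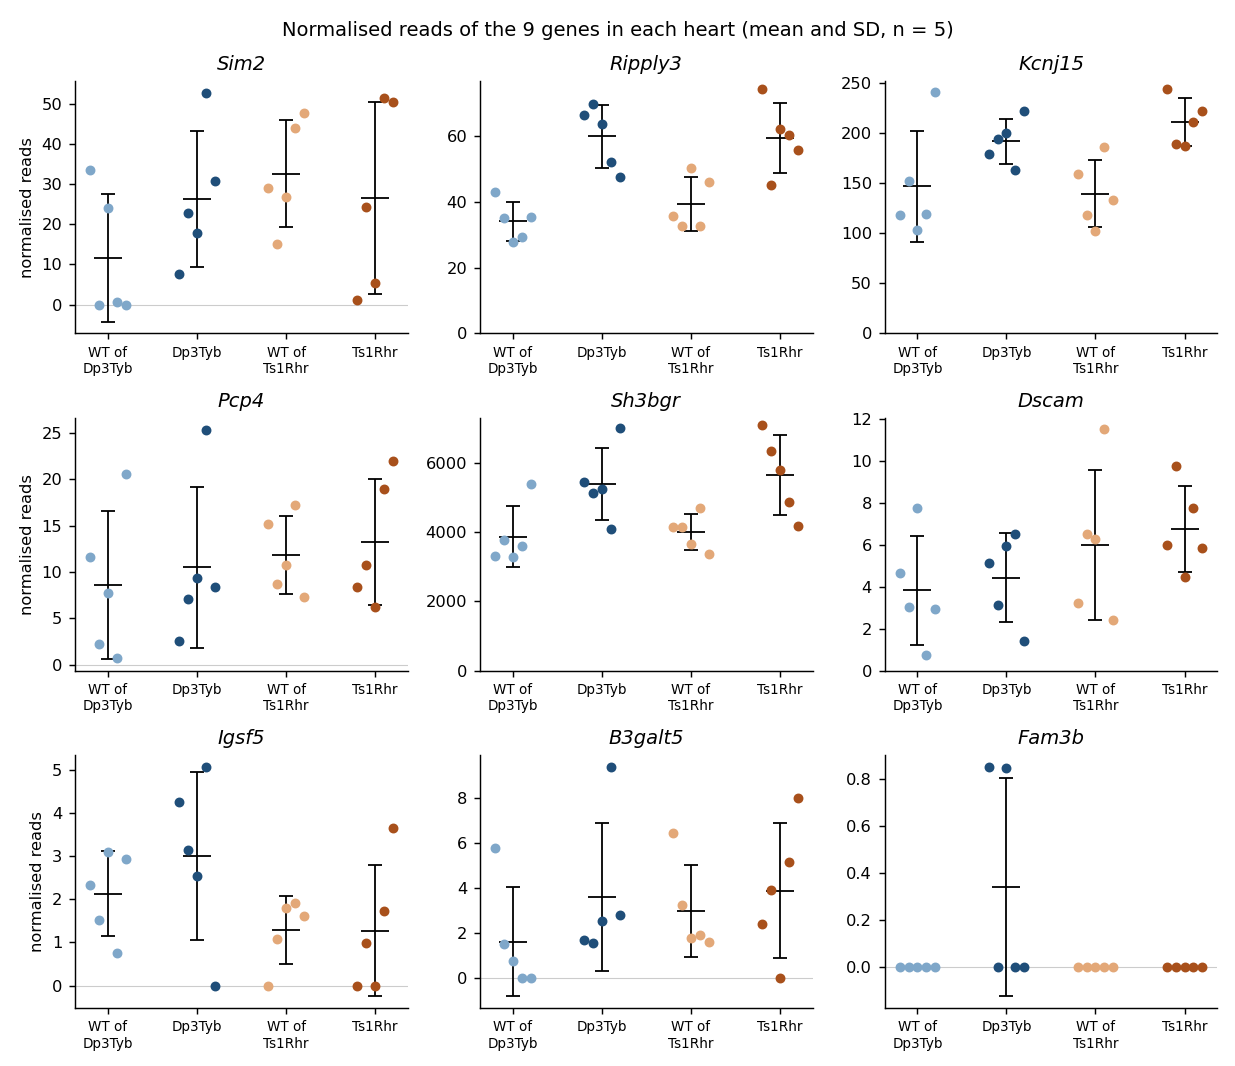
Normalised reads of the 9 genes in each of the 20 hearts, in 4 groups of 5 (replicates 1 to 5 from left to right), with the mean and the SD as bars. The mutant hearts lie above all WT hearts for Ripply3 in Dp3Tyb and for Kcnj15 in Ts1Rhr, and the groups overlap in the other panels, apart from Fam3b, which had a value above 0 in 2 Dp3Tyb hearts alone.

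The remaining genes were at the limit of detection. Dscam, a homophilic adhesion receptor of neurons that also binds netrin, had 4, 4, 10, 1 and 1 whole reads in WT and 6, 4, 7, 9 and 1 in Dp3Tyb hearts, and 3, 6, 7, 6 and 3 in WT and 5, 10, 5, 9 and 8 in Ts1Rhr hearts. Summed over the 5 hearts this was 2.65 reads per 10 M in WT and 3.21 in Dp3Tyb, and 3.39 in WT and 4.42 in Ts1Rhr. The exact Poisson 95% intervals, which cover counting error only, were 1.62 to 4.09 and 2.12 to 4.67, and 2.20 to 5.01 and 3.11 to 6.10, and overlapped in both cohorts. Overlap of such intervals, here and for the genes below, is not a test of a difference. An unfiltered limma fit gave a log2 difference of 0.24 (95% interval -0.79 to 1.27) in Dp3Tyb and 0.26 (-0.57 to 1.09) in Ts1Rhr, intervals that hold no change as well as 0.58. Unc5b and Ntn1, a netrin receptor and a netrin and the most abundant per kb of its listed relatives, differed by 0.02 ± 0.19 and 0.17 ± 0.16 (log2, SE) in Dp3Tyb and by 0.20 ± 0.12 and 0.27 ± 0.12 in Ts1Rhr, none past the threshold.

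Igsf5, also known as JAM4 and a tight junction protein of epithelia, had 2, 2, 4, 1 and 1 whole reads in WT and 5, 4, 3, 7 and 0 in Dp3Tyb hearts, and 0, 1, 2, 1 and 2 in WT and 0, 1, 0, 2 and 5 in Ts1Rhr hearts. Summed, this was 1.32 reads per 10 M (exact Poisson 95% interval 0.635 to 2.44) in WT and 2.26 (1.36 to 3.53) in Dp3Tyb, and 0.814 (0.299 to 1.77) in WT and 0.956 (0.413 to 1.88) in Ts1Rhr. The intervals overlapped in both cohorts. The unfiltered log2 difference was 0.20 (95% interval -0.90 to 1.30) in Dp3Tyb and -0.17 (-1.18 to 0.85) in Ts1Rhr. Itgb2l, which lies within Igsf5 on the opposite strand, had 13 reads in 20 hearts. The junction genes F11r and Magi1 differed by 0.02 ± 0.07 and -0.03 ± 0.09 (log2, SE) in Dp3Tyb and by 0.11 ± 0.07 and -0.13 ± 0.10 in Ts1Rhr and did not pass the test.

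B3galt5, which adds galactose in a beta1,3 linkage to glycan chains, had 5, 2, 1, 0 and 0 whole reads in WT and 2, 2, 3, 13 and 2 in Dp3Tyb hearts, and 6, 3, 2, 1 and 2 in WT and 2, 4, 0, 6 and 11 in Ts1Rhr hearts. Summed, this was 1.06 reads per 10 M (exact Poisson 95% interval 0.457 to 2.09) in WT and 2.62 (1.64 to 3.96) in Dp3Tyb, and 1.90 (1.04 to 3.19) in WT and 2.75 (1.74 to 4.13) in Ts1Rhr. The intervals overlapped, which is not a test of a difference, and Dp3Tyb replicate 4 alone gave 13 of the 22 reads of its group. Between hearts the exact permutation test gave p = 0.143 in Dp3Tyb and p = 0.913 in Ts1Rhr (unadjusted). In the 5 libraries with few lung and foregut transcripts B3galt5 had a read in 2, and in the other 15 it had a read in all 15. For Igsf5 the split was weaker, with a read in 3 of the 5 and in 13 of the 15. The unfiltered log2 difference was 1.0 (95% interval -0.27 to 2.27) in Dp3Tyb and 0.09 (-1.10 to 1.28) in Ts1Rhr. B3galnt1 and B3galt6, the relatives with the highest level per kb, differed by 0.09 ± 0.10 and 0.01 ± 0.21 (log2, SE) in Dp3Tyb and by -0.13 ± 0.08 and 0.32 ± 0.13 in Ts1Rhr and did not pass the test.

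Fam3b, at the distal end of the Ts1Rhr duplication, had 1 read in Dp3Tyb replicate 1, 1 read in Dp3Tyb replicate 3 and none in the other 18 hearts. Taking 3 reads over 5 libraries as the limit that a count of 0 allows, this limit was 0.397 reads per 10 M in WT hearts of the Dp3Tyb cohort, 0.407 in WT hearts of the Ts1Rhr cohort and 0.359 in Ts1Rhr hearts, so a difference between 2 and 3 copies was not detectable at this depth. Its paralogs in 2 copies, Fam3c and Fam3a, differed by 0.02 ± 0.13 and -0.07 ± 0.09 (log2, SE) in Dp3Tyb and by -0.00 ± 0.10 and -0.04 ± 0.09 in Ts1Rhr. Neither passed the test.

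**Figure D4:**
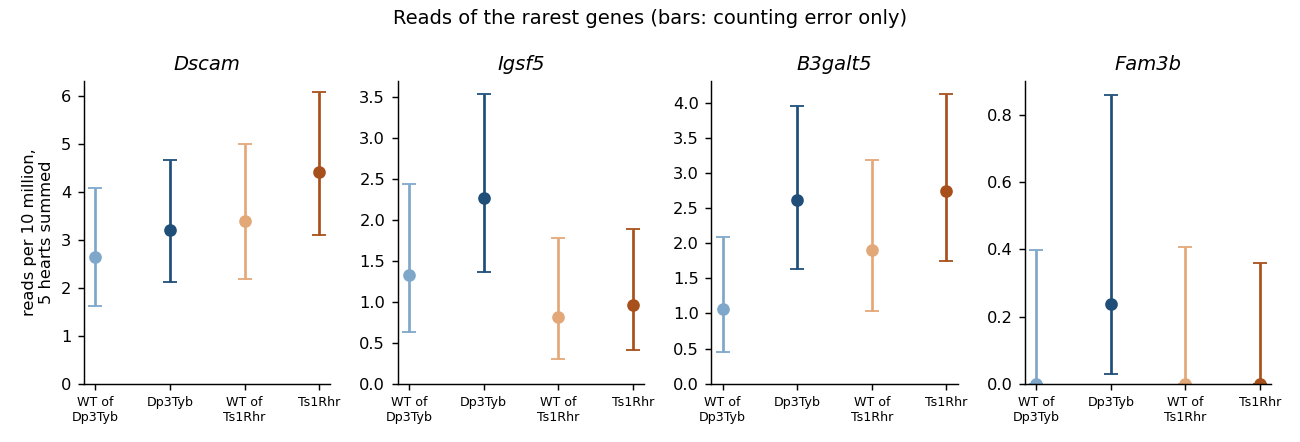
Reads per 10 M of Dscam, Igsf5, B3galt5 and Fam3b, summed over the 5 hearts of each group, with exact Poisson 95% intervals that cover counting error only, or, where no read was found, a bar up to the limit of 3 reads that a count of 0 allows. The bars of mutant and WT hearts overlap for all 4 genes in both cohorts, and Fam3b has 2 reads in Dp3Tyb and 0 in the other groups.

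Counted together, 4 of the 9 genes were tested in Dp3Tyb hearts, all 4 with a log2 fold change above 0 (48.9% of all genes tested) and none passing limma's threshold, which 0.0474% of all genes passed toward a higher level. DESeq2 called 1, Ripply3, where it called 0.176% of all genes higher, and edgeR called 0, where it called 0.0542%. For Sim2 DESeq2 gave no adjusted p in this cohort, so it could not be called there. At an unadjusted p under 0.05 limma had 3 of the 4 genes, Sim2, Ripply3 and Sh3bgr, against 2.8% of all genes. The median log2 fold change of the 4 was 0.64, that of the other 16 genes in 3 copies that were tested was 0.50 and that of all genes was -0.003. Of those 16, limma called 4 and DESeq2 11, and in 11 all 5 mutant hearts lay above all 5 WT hearts. The log2 fold changes of the 16 ran from 0.36 (Erg) to 0.75 (Bace2). In Ts1Rhr hearts 5 of the 9 genes were tested, 4 with a log2 fold change above 0 (49.6% of all genes) and none called by limma, where 0.0269% of all genes were called higher, nor by DESeq2 (0.128%) or edgeR (0.0269%). At an unadjusted p under 0.05 limma had 3, Ripply3, Kcnj15 and Sh3bgr, against 5.52% of all genes. The median log2 fold change was 0.48, and that of the other 16 genes was 0.51, with values over the 16 from 0.21 (Erg) to 0.82 (Vps26c). Of these, limma called 4 and DESeq2 11. Since genes had to reach a level to be tested, the medians describe the genes that passed and not the 9 genes as a whole.

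None of the 5 genes of the 9 that were tested was called as changing differently between the strains, in a limma interaction test over all 20 hearts in which 0.013% of 15348 genes were called. The change was larger in Dp3Tyb than in Ts1Rhr by 3.41 ± 1.41 (log2, SE, unadjusted p = 0.0256 by limma, and 1.44 ± 1.43 by DESeq2 and 1.35 by edgeR) for Sim2, by 0.21 ± 0.24 for Ripply3, by 0.41 ± 0.84 for Pcp4 and by 0.002 ± 0.22 for Sh3bgr, and differed by -0.17 ± 0.27 for Kcnj15, with an adjusted p = 1.0 for each. At an unadjusted p under 0.05 this left Sim2 alone, against 1.52% of all genes, and DESeq2 (0.0195% of all genes called) and edgeR (0.013%) called 0 of the 5. Without the 5 libraries with few lung and foregut transcripts the difference was -0.74 ± 0.75 for Sim2 and 0.35 ± 0.24 for Sh3bgr, and without libraries above 10% mitochondrial reads it was 0.60 ± 0.26 for Ripply3. With 1 heart left out the Ripply3 difference ranged from 0.12 (without Ts1Rhr replicate 2) to 0.30. The 2 groups of WT hearts were compared in the same fit, with no gene of the 9 called (limma, 0% of all genes called). Sim2 was higher in WT hearts of the Ts1Rhr cohort by 2.85 ± 1.0 (limma, adjusted p = 0.833), by 1.46 ± 1.02 with DESeq2 and by 1.40 with edgeR. By limma it was the only one of the 5 at an unadjusted p under 0.05 (5.84% of all genes), and the difference was 0.09 without the 5 libraries. DESeq2, which called 0.0391% of all genes, and edgeR called none of the 5 between the WT groups.

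**Figure D5:**
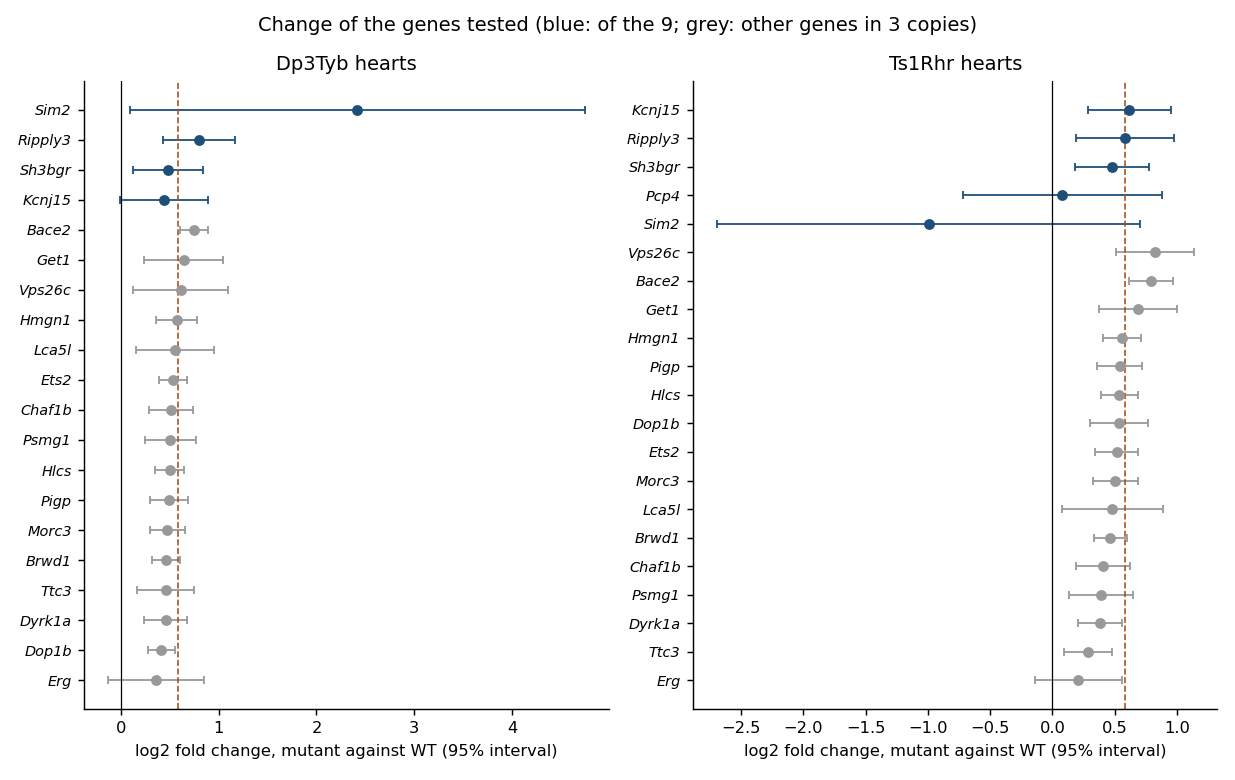
Log2 fold change of mutant against WT hearts (limma, points) with its 95% interval (bars) for the genes tested in each strain, with the 9 genes in blue and the other genes in 3 copies in grey, and a dashed line at 0.58, the log2 of 3 copies over 2. Ripply3, Kcnj15 and Sh3bgr lie between 0.44 and 0.80 in both strains, and Sim2 has the widest interval in each.

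Of 48 relatives and partners of the 9 genes that lie outside the duplications, 38 were tested in Dp3Tyb and 37 in Ts1Rhr. None was called by limma, DESeq2 or edgeR in either strain, and their median log2 fold change was 0.02 in Dp3Tyb and -0.04 in Ts1Rhr. DESeq2 gave no adjusted p for Tbx1 in Dp3Tyb.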

How the data were processed

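RNA was extracted from whole E13.5 hearts, and libraries made with the KAPA mRNA HyperPrep kit were sequenced on an Illumina HiSeq. The submitters' processing notes name Trimmomatic 0.36, STAR 2.5.2a, RSEM 1.2.31, DESeq2 and DESeq and the build GRCm38, without their roles, and the annotation and use of strand are not given in the sources used here. The authors deposited 1 table of 48795 genes and 20 libraries, a signal of reads divided by a size factor. In each library 100% of values were whole multiples of the smallest (tolerance 1e-06), and the multiples are called whole reads, although RSEM gives estimated counts that may have been rounded. Size factors recomputed from them by median of ratios differed by at most 3.77e-15 (relative). Symbols and exon lengths came from GENCODE vM39, which held 91.3% of the identifiers. Positions came from RefSeq (GRCm38.p6).

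Values were tested with limma 3.58.1 (R 4.3.3) on log2(value + 1), per cohort of 10 libraries, with a trended, robust prior, 2-sided, Benjamini-Hochberg adjustment over all genes tested and a threshold of 0.05. Fold changes of low genes on that scale depend on the pseudocount and can be smaller or larger than those of count models. DESeq2 1.42.0 and edgeR 4.0.16 (quasi-likelihood) on whole reads were alternatives, as were other pseudocounts, no filter, marker scores as covariates and fits without libraries. Groups came from the genotype labels, and replicate numbers follow the order of listing. Series labels name separate hearts, so p-values measure the spread between these hearts. None of 40 pairs within groups agreed within counting noise (mean chi-square per gene of 3.90 or more). Poisson intervals and limits at 0 reads (3 reads) cover counting error only. The 9 genes were all named. For those with a mean value of at least 10, the 3 genes with the highest Pearson r of log2(value + 1) minus the group mean were named. Of relatives, all that passed the test, and otherwise up to 2 per gene with the highest level per kb, were named, and Tbx1 was added after its value was seen. The genes and lists were chosen with earlier results of these data known. The steps were tested on simulated data, drawn once per strain. These had the same spread for all genes and no differences in tissue or mitochondrial share between libraries. There DESeq2 made more false calls than its threshold allows in the Dp3Tyb design, and no method recovered most of the genes changed by the ratio of 3 copies to 2, so a missed call is weak evidence of no change.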

Additional observations from a re-analysis of the deposited data

Results flagged for a closer look

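In 33 groups of 5 hearts with any spread, the distance of the highest or lowest heart from the next was compared with the range of the group, and 3 hearts lay further out than Dixon's critical value of 0.710, where chance flags about 1 in 20 groups. Sh3bgr had 5391 normalised reads in WT replicate 5 of the Dp3Tyb cohort, with a gap of 0.765 of the range, and this was the library with the fewest reads (6.60 M) and the highest mitochondrial share (19.5%). B3galt5 had 5.80 normalised reads (5 whole reads) in WT replicate 1 of the Dp3Tyb cohort, with a gap of 0.737, and 9.41 (13 whole reads) in Dp3Tyb replicate 4, with a gap of 0.843. These 2 libraries had the highest scores of their groups for lung and foregut (6.59 and 6.97), neuronal (5.61 and 5.86), Schwann and neural crest (5.50 and 5.60), pharyngeal (2.84 and 4.26) and skeletal muscle markers (4.58 and 3.38), and Myh3 of the last list had 931 normalised reads in the first of them. Their part in the B3galt5 values was not tested.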

How the results depend on the processing

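No paired analysis was run. The study states that mutant and control embryos were littermates, but replicate numbers follow the order of listing and no label ties a mutant heart to a WT heart. The count of genes called in Dp3Tyb hearts was 0 by limma and 1 by DESeq2, with or without the filter. All other counts of calls stayed at 0, and medians of the genes tested were 0.61 to 0.74 in Dp3Tyb and 0.30 to 0.50 in Ts1Rhr under the alternatives and 0.58 to 0.73 and 0.39 to 0.58 when 1 heart was left out. The following single genes, none of them called, changed direction, and the cause was not tested. Without the 5 libraries with few lung and foregut transcripts (chosen after seeing the data), Sim2 was at -0.35 in Dp3Tyb and 0.39 in Ts1Rhr, the differences between strains were -0.74 for Sim2, 0.18 for Kcnj15 and -0.67 for Pcp4, and Kcnj15 differed by 0.30 between WT groups. With the lung and foregut score as a covariate, Sim2 was at 0.33 in Ts1Rhr, the differences between strains were 0.0171 for Kcnj15 and -0.85 for Pcp4, and Kcnj15 differed by 0.0882 between WT groups. With the neuronal score, the Pcp4 difference between strains was -0.28. The Sh3bgr difference between strains was -0.0166 by DESeq2 and -0.0142 by edgeR. With 1 heart left out, Pcp4 in Ts1Rhr ranged from -0.13 to 0.29 (below 0 without WT replicate 2 or 5 or Ts1Rhr replicate 4 or 5). Differences between strains ranged from -0.10 to 0.13 for Sh3bgr, -0.28 to 0.0218 for Kcnj15 (above 0 without WT replicate 5 of the Dp3Tyb cohort) and -0.0785 to 0.83 for Pcp4 (below 0 without WT replicate 4 of that cohort), and Kcnj15 between WT groups from -0.15 to 0.16. Sim2 and Pcp4 in Ts1Rhr could not be fitted without libraries above 10% mitochondrial reads, since they then missed the filter. Leaving out those libraries or hearts leaves as few as 2 in a group. At 6.60 to 19.6 M reads, Dscam, Igsf5, B3galt5 and Fam3b gave at most 13 reads in a heart, which limits any statement on their change.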
